A study of Mus musculus with 8 samples.

Results

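The 9 genes described here make, bind, store, sense or break down retinoic acid, the active form of vitamin A. They were taken by symbol from a table of 46983 genes counted in mouse tail epidermis: the binding protein genes Crabp1 and Crabp2, the retinol-oxidizing genes Dhrs9 and Rdh10, the retinal-oxidizing genes Aldh1a1 and Aldh1a3, the breakdown gene Cyp26b1, the retinol esterification gene Dgat1 and the receptor gene Rarg. The study compared 4 SKO with 4 CTR mice, all aged 8 weeks, with 1 RNA library per mouse, and addressed the role in skin of Ppp1r8, the gene of NIPP1, a nuclear protein that binds and directs the phosphatase PP1. SKO mice had the genotype K14-Cre/+ Ppp1r8 fl/- (1 floxed and 1 null allele), and CTR mice had K14-Cre/+ Ppp1r8 fl/+ (1 floxed and 1 wild-type allele). All 8 mice therefore carried the K14-Cre transgene, driven by a keratin 14 promoter that is active in basal keratinocytes, and 1 floxed Ppp1r8 allele, which cells outside the keratin 14 lineage would keep. The strain label gives the transgene as Tg(KRT14-cre)1Amc/J and the alleles as Ppp1r8tm1Ave and Ppp1r8tm1.1Itl.

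Retinol enters cells from the blood and is held by cellular retinol-binding proteins. It is either esterified for storage or oxidized, first to retinal by retinol dehydrogenases and then to retinoic acid by retinal dehydrogenases. Retinoic acid is carried by CRABP proteins, acts on retinoic acid receptors paired with RXR receptors, and is cleared by CYP26 enzymes. In epidermis retinoids are known for their effects on keratinocyte differentiation and on hair follicles and sebaceous glands, and the receptor encoded by Rarg is the main retinoic acid receptor there.

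Library totals were 18649079 to 20500885 counts in SKO and 16696212 to 21571935 counts in CTR. Levels are given in CPM (read counts scaled to library size, here with TMM factors). Against the plain library totals, without TMM factors, 3 counts in a library stood for 0.139 to 0.180 CPM, used as the detection floor. The defining keratinocyte genes were abundant in every library, with summed levels of the 10 keratinocyte markers of 60561 to 77359 CPM in SKO and 37805 to 42312 CPM in CTR. Of these 10 markers 3 (Krt1, Krt10 and Lor, of the suprabasal layers) were higher and 5 lower in SKO, with a median log2 fold change of -0.19, so the higher sum does not stand for most of them. Markers of the hair shaft with its inner root sheath were lower in SKO, where 11 of 13 tested (84.6%) passed the threshold and summed levels were 319.9 to 3879 CPM, against 6602 to 12352 CPM in CTR. Ppp1r8, the targeted gene, had 36.4 ± 8.00 CPM in SKO and 37.9 ± 3.58 CPM in CTR (SD, n = 4 each). Its gene-level count sums all exons, the sources used here do not give the deleted exons, and the count therefore does not check the genotype labels. Xist, the RNA that coats the inactive X chromosome, was lower in SKO, with 419 ± 114 CPM in SKO and 792 ± 153 CPM in CTR (SD, n = 4 each), and 4 Y-linked genes had 0 counts in every library.

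SKO epidermis had less mRNA of the retinoic acid-clearing enzyme gene Cyp26b1 and more of the retinoic acid-binding protein gene Crabp2, while 5 other members did not pass the test and 2 were near the detection floor. Of the 7 members that passed the filter on low counts, 1 was higher and 1 lower in SKO (edgeR quasi-likelihood test, Benjamini-Hochberg adjusted p under 0.05). Of all 15638 tested genes 23.7% passed the same threshold, 11.5% higher and 12.2% lower in SKO, so the 2 of 7 members (28.6%) lie close to that background. The median log2 fold change was -0.04 over the 7 tested members and -0.0026 over all tested genes. The groups did not overlap for the same 2 members, Cyp26b1 and Crabp2, against 26.2% of all tested genes. In such bulk samples, fewer cells of a type and less RNA per cell cannot be told apart.

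**Figure D1:**
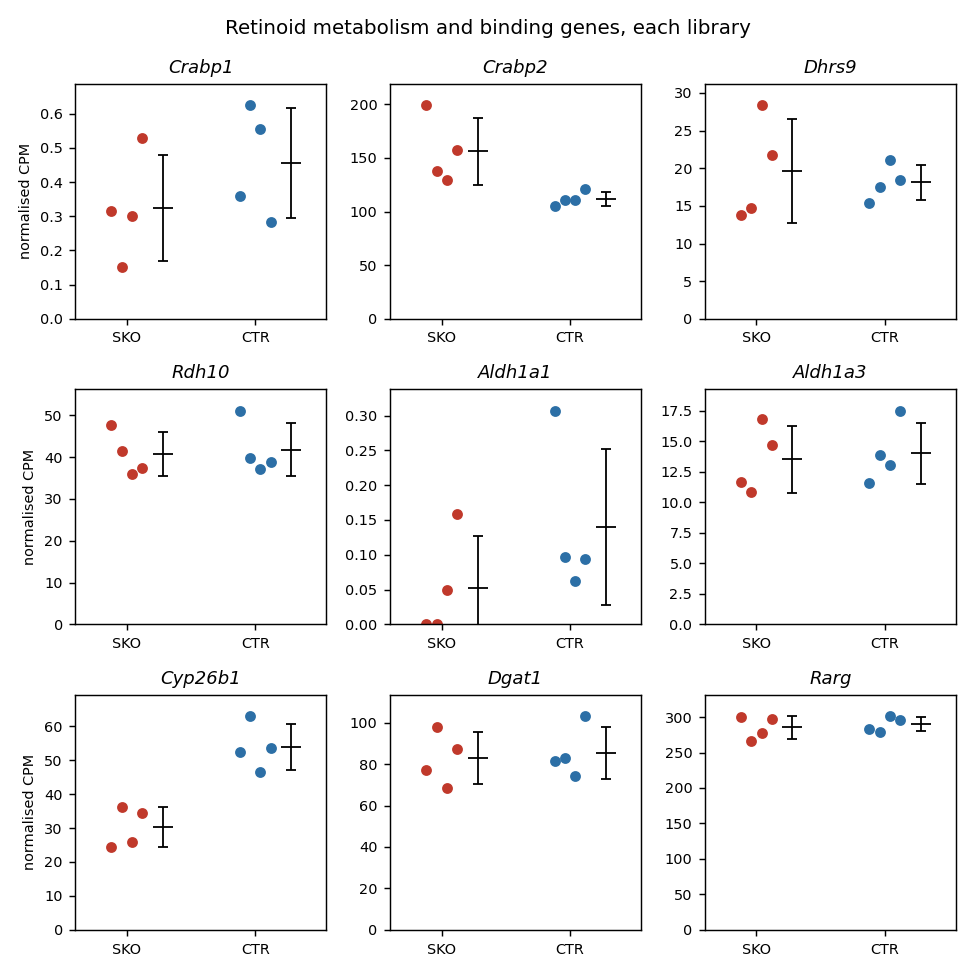
Normalised CPM of the 9 members in each library (points; 1 panel per gene, linear axis from 0), SKO left and CTR right, with mean and SD beside the points; the lower bar of Aldh1a1 in SKO is cut at 0. The Cyp26b1 points of SKO lie between 24.5 and 36.2 CPM, all below the CTR points, and the Crabp2 points of SKO lie between 130 and 199 CPM, all above them.

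Among the binding proteins, Crabp2 (ENSMUSG00000004885.5, chromosome 3, 87948666 to 87953376, GRCm38) encodes the protein that hands retinoic acid to its nuclear receptors. It had 199, 138, 130 and 158 CPM in SKO 1 to 4, against 105, 111, 111 and 121 CPM in CTR 1 to 4. All 4 SKO libraries exceeded all 4 CTR libraries, and SKO 1 was the highest. The means were 156 ± 31.1 CPM in SKO and 112 ± 6.53 CPM in CTR (SD, n = 4 each). Crabp2 rose 1.39-fold in SKO (log2 fold change 0.48, SE 0.12, 95% interval 0.20 to 0.76, edgeR adjusted p = 0.0206). The call ended without CTR 1 (adjusted p = 0.0579) or CTR 3 (adjusted p = 0.0520), at log2 fold changes of 0.45 and 0.47.

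Crabp1 (chromosome 9, 54764748 to 54773110), which encodes the other cellular retinoic acid-binding protein, was scarcely detected. It had 6, 3, 6 and 10 counts in SKO 1 to 4, against 7, 13, 9 and 6 counts in CTR 1 to 4. The groups overlapped, and the gene did not pass the count filter. Its mean level was 0.324 ± 0.156 CPM in SKO and 0.456 ± 0.162 CPM in CTR (SD, n = 4 each), close to the floor, and the difference of -0.132 CPM had an exact two-sided permutation p of 0.257, with 0.0286 the smallest that 4 against 4 libraries allow.

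The retinol-oxidizing members did not pass the test. Rdh10 (chromosome 1, 16105774 to 16133734), which encodes the main retinol dehydrogenase of the mouse embryo, had 47.8, 41.4, 36.0 and 37.4 CPM in SKO 1 to 4, against 51.1, 39.8, 37.2 and 38.9 CPM in CTR 1 to 4. The groups overlapped, and replicate 1 was the highest library in each. The log2 fold change was -0.04 (SE 0.12, 95% interval -0.31 to 0.23, edgeR adjusted p = 0.842), and its sign turned without SKO 3 (0.016) or CTR 1 (0.072). Dhrs9 (chromosome 2, 69380445 to 69404533), a short-chain dehydrogenase gene whose product oxidizes retinol, had 13.7, 14.7, 28.4 and 21.8 CPM in SKO 1 to 4, against 15.4, 17.5, 21.2 and 18.4 CPM in CTR 1 to 4. SKO libraries lay on both sides of the CTR libraries and were more spread, with SDs of 6.85 CPM in SKO and 2.38 CPM in CTR. Its log2 fold change was 0.12 (SE 0.22, 95% interval -0.36 to 0.60, edgeR adjusted p = 0.722), and -0.11 without SKO 3.

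Of the retinal dehydrogenase members, Aldh1a3 was measurable and Aldh1a1 was not. Aldh1a3 (chromosome 7, 66390890 to 66427517) had 11.6, 10.9, 16.8 and 14.7 CPM in SKO 1 to 4, against 11.6, 13.9, 13.1 and 17.5 CPM in CTR 1 to 4. The groups overlapped, with a log2 fold change of -0.05 (SE 0.17, 95% interval -0.43 to 0.32, edgeR adjusted p = 0.847). The direction turned without SKO 1, SKO 2 or CTR 4, at log2 fold changes of 0.02, 0.04 and 0.07. Aldh1a1 (chromosome 19, 20492715 to 20643465) had 0, 0, 1 and 3 counts in SKO 1 to 4, against 6, 2, 1 and 2 counts in CTR 1 to 4. Both groups were at or under the floor except CTR 1, so no fold change is given, and a difference was not detectable at this depth (exact two-sided permutation p = 0.314, n = 4 per group).

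Cyp26b1 (ENSMUSG00000063415.12, chromosome 6, 84571414 to 84593908, minus strand) encodes a cytochrome P450 that hydroxylates retinoic acid and so clears it. It had 24.5, 36.2, 26.0 and 34.3 CPM in SKO 1 to 4, against 52.4, 63.0, 46.5 and 53.7 CPM in CTR 1 to 4. The highest SKO library was below the lowest CTR library. Means were 30.2 ± 5.85 CPM in SKO and 53.9 ± 6.81 CPM in CTR (SD, n = 4 each). Cyp26b1 was 1.78-fold lower in SKO (log2 fold change -0.83, SE 0.14, 95% interval -1.15 to -0.52, edgeR adjusted p = 0.00339). It was called in each of the 8 fits that left out 1 library, with log2 fold changes of -0.93 to -0.74. The other CYP26 genes were at or under the floor, with at most 0.105 CPM in any library for Cyp26a1 and 0.0524 CPM for Cyp26c1. Hair shaft markers were lower in the same SKO libraries, as given above, and so were 2 of the 3 tested dermal papilla markers of 10 (66.7%, beside 23.7% of all tested genes). The dermal papilla markers had sums of 7.13 to 16.3 CPM in SKO and 35.6 to 63.0 CPM in CTR. The part of either marker group in the Cyp26b1 difference was not tested.

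The 152 bases upstream of the annotated starts of Cyp26b1, the member with the largest change, are shown with a TATAAA match in capitals. The match begins 41 bases before the GENCODE M21 start and 139 bases before the RefSeq start. For Dhrs9 and Rarg, the members with a match to AGGTCA, the core element bound by many nuclear receptors, 30 bases around it are shown with the match in capitals. In both the match is on the opposite strand and reads TGACCT. Sequences are 5′ to 3′ on the strand of the gene, from RefSeq's promoter table on GRCm38.p6.
Cyp26b1, chr6:84593909-84594060, minus strand: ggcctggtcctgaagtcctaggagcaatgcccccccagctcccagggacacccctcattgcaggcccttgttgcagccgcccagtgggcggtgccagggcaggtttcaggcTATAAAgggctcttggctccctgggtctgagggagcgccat
Dhrs9, chr2:69380362-69380391, plus strand: tttggaaacctgTGACCTacaatctccccg
Rarg, chr15:102257730-102257759, minus strand: agcccaggacacTGACCTctgccagctctg

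The promoter table held 7 windows of 300 bases, from 250 bases before to 50 bases after a RefSeq start, for 5 of the 9 members: Crabp1, Dhrs9, Aldh1a1, Cyp26b1 and Rarg. AGGTCA, searched on both strands, was in 2 of these 7 windows and in 16.3% of all 32851 windows. The direct repeats DR1, DR2 and DR5 are pairs of such elements on which retinoid receptors are known to bind. Their elements were searched in the looser form [AG]G[GT]TCA, where brackets hold the bases allowed, on both strands. These repeats were in 0 of the 7 windows and in 0.222%, 0.268% and 0.0974% of all windows. A repeat may hold AGGTCA itself, so the searches overlap. TATAAA, searched on the gene's strand, was in 2 of the 7 windows, those of Cyp26b1 and Dhrs9, and in 8.32% of all windows. These are matches of letters within short windows and describe no binding.

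Dgat1 and Rarg stayed within the spread of the libraries. Dgat1 (chromosome 15, 76502015 to 76511953), a triglyceride synthesis gene whose product also esterifies retinol in skin, had 77.3, 97.9, 68.7 and 87.3 CPM in SKO 1 to 4, against 81.4, 82.9, 74.4 and 103 CPM in CTR 1 to 4. The groups overlapped, with a log2 fold change of -0.05 (SE 0.13, 95% interval -0.33 to 0.24, edgeR adjusted p = 0.818), which turned to 0.03 without SKO 3 and 0.06 without CTR 4. Rarg (chromosome 15, 102234938 to 102257517), the receptor gene, had 300, 267, 278 and 297 CPM in SKO 1 to 4, against 284, 279, 301 and 295 CPM in CTR 1 to 4. The groups overlapped, and the log2 fold change of -0.02 (SE 0.07, edgeR adjusted p = 0.843) had the narrowest 95% interval of the 7 tested members, -0.18 to 0.13. Its sign turned without SKO 2 (0.014) and with upper-quartile factors (0.0040).

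Per kilobase of annotated exon, which allows levels to be compared between genes, the members differed widely. The length counts every annotated exon base of a gene, whichever transcripts were expressed, so the order can depend on the annotation. Crabp2 was the most abundant (118 ± 23.5 RPKM in SKO and 84.7 ± 4.94 RPKM in CTR), followed by Rarg (67.0 ± 3.73 RPKM in SKO and 68.0 ± 2.405 RPKM in CTR) and Dgat1 (27.1 ± 4.13 RPKM in SKO and 27.96 ± 4.06 RPKM in CTR; SD, n = 4 each). Over the 8 libraries the ranges of these 3 genes were apart from each other and from the next. Rdh10 (9.77 RPKM in SKO and 10.0 RPKM in CTR), Cyp26b1 (5.65 RPKM in SKO and 10.1 RPKM in CTR), Dhrs9 (4.59 RPKM in SKO and 4.23 RPKM in CTR) and Aldh1a3 (2.93 RPKM in SKO and 3.03 RPKM in CTR) followed, and each overlapped its neighbour in that order. Crabp1 (0.404 RPKM in SKO and 0.568 RPKM in CTR) and Aldh1a1 (0.0106 RPKM in SKO and 0.0283 RPKM in CTR) came last and apart. In CTR Rdh10 and Cyp26b1 were level, whereas in SKO every Cyp26b1 value was below every Rdh10 value.

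**Figure D2:**
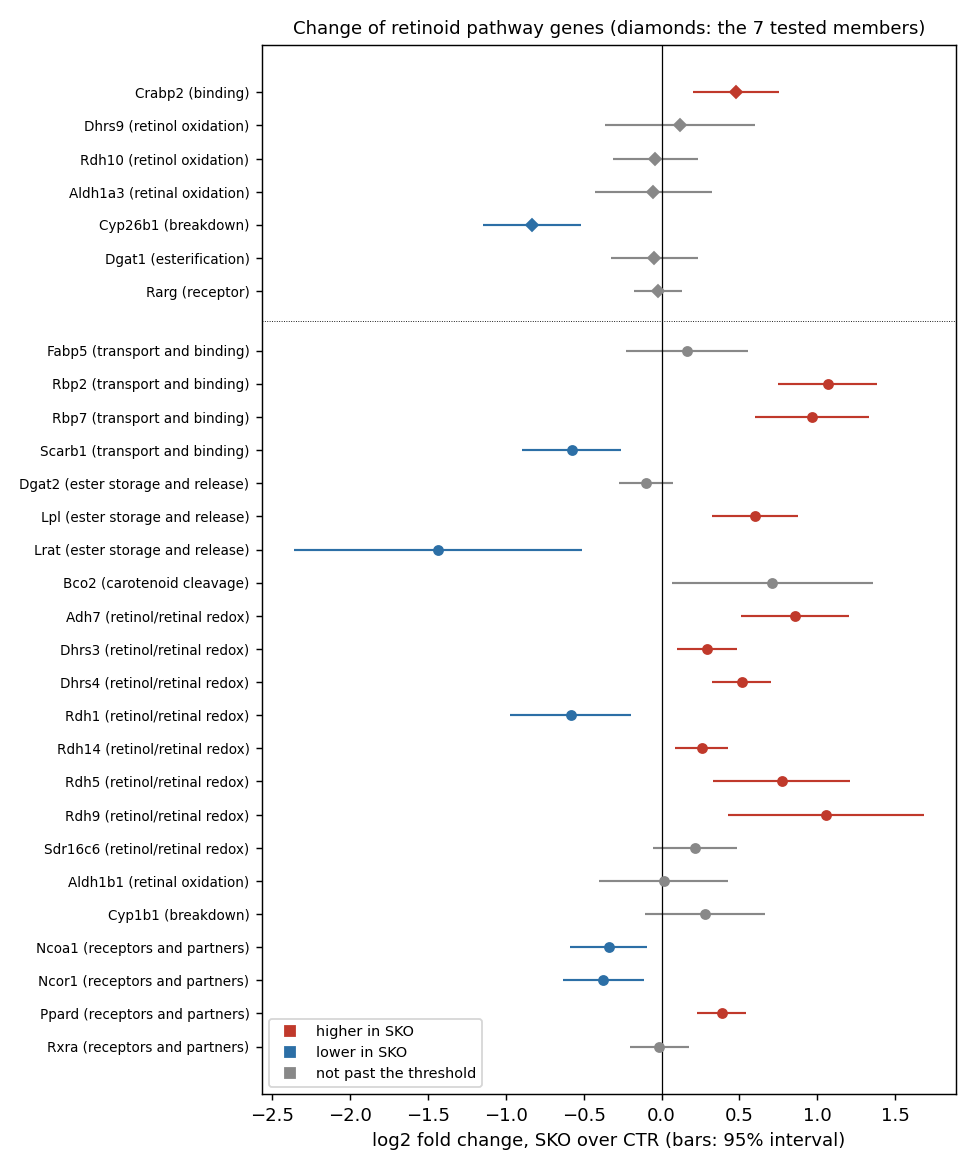
Log2 fold change of SKO over CTR with its 95% interval for the 7 tested members (diamonds, above the dotted line) and for other genes of the pathway that passed the threshold or were the most abundant uncalled gene of their step (circles); red is higher in SKO, blue lower, grey not past the threshold. Rbp2 and Rbp7 lie near 1, with Cyp26b1 at -0.83 and Lrat at -1.44.

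Beyond the members, genes of cellular retinol-binding proteins rose, and genes of storage, oxidation and reception moved in both directions. Of 55 other genes of retinoid uptake, storage, oxidation, breakdown and reception, 43 were tested, and 10 were higher and 5 lower in SKO (34.9%, beside 23.7% of all tested genes), with a median log2 fold change of 0.04. Leaving out 1 library at a time gave 8 to 18 such genes, with 8 without CTR 2 and 9 without SKO 4, CTR 1 or CTR 3. Of the 15, 7 were called in each of these fits: Rbp2, Rbp7, Adh7, Dhrs4, Lpl and Ppard, all higher, and Scarb1, lower.

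Of 5 tested uptake and binding genes, 2 rose and 1 fell (60.0%, beside 23.7% of all tested genes). Rbp2, best known as the retinol-binding protein gene of the intestine, had 60.1, 45.4, 68.7 and 45.4 CPM in SKO 1 to 4, against 23.7, 24.3, 28.7 and 28.1 CPM in CTR 1 to 4. It rose 2.096-fold without overlap (log2 fold change 1.07, SE 0.14, edgeR adjusted p = 0.00118). Rbp7, a gene of the same family on chromosome 4, had 50.01, 36.8, 43.3 and 31.5 CPM in SKO 1 to 4, against 25.0, 17.8, 16.9 and 23.0 CPM in CTR 1 to 4. It rose 1.95-fold, also without overlap (log2 fold change 0.97, SE 0.17, edgeR adjusted p = 0.00356). Scarb1, a lipoprotein receptor gene linked to carotenoid uptake, had 12.1 ± 2.33 CPM in SKO and 18.1 ± 1.66 CPM in CTR (SD, n = 4 each) and was 1.49-fold lower (edgeR adjusted p = 0.0173). Fabp5, which encodes a fatty acid-binding protein that can carry retinoic acid to PPAR delta, had 422 ± 88.5 CPM in SKO and 377 ± 82.4 CPM in CTR (log2 fold change 0.16, 95% interval -0.23 to 0.56, edgeR adjusted p = 0.528).

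**Figure D3:**
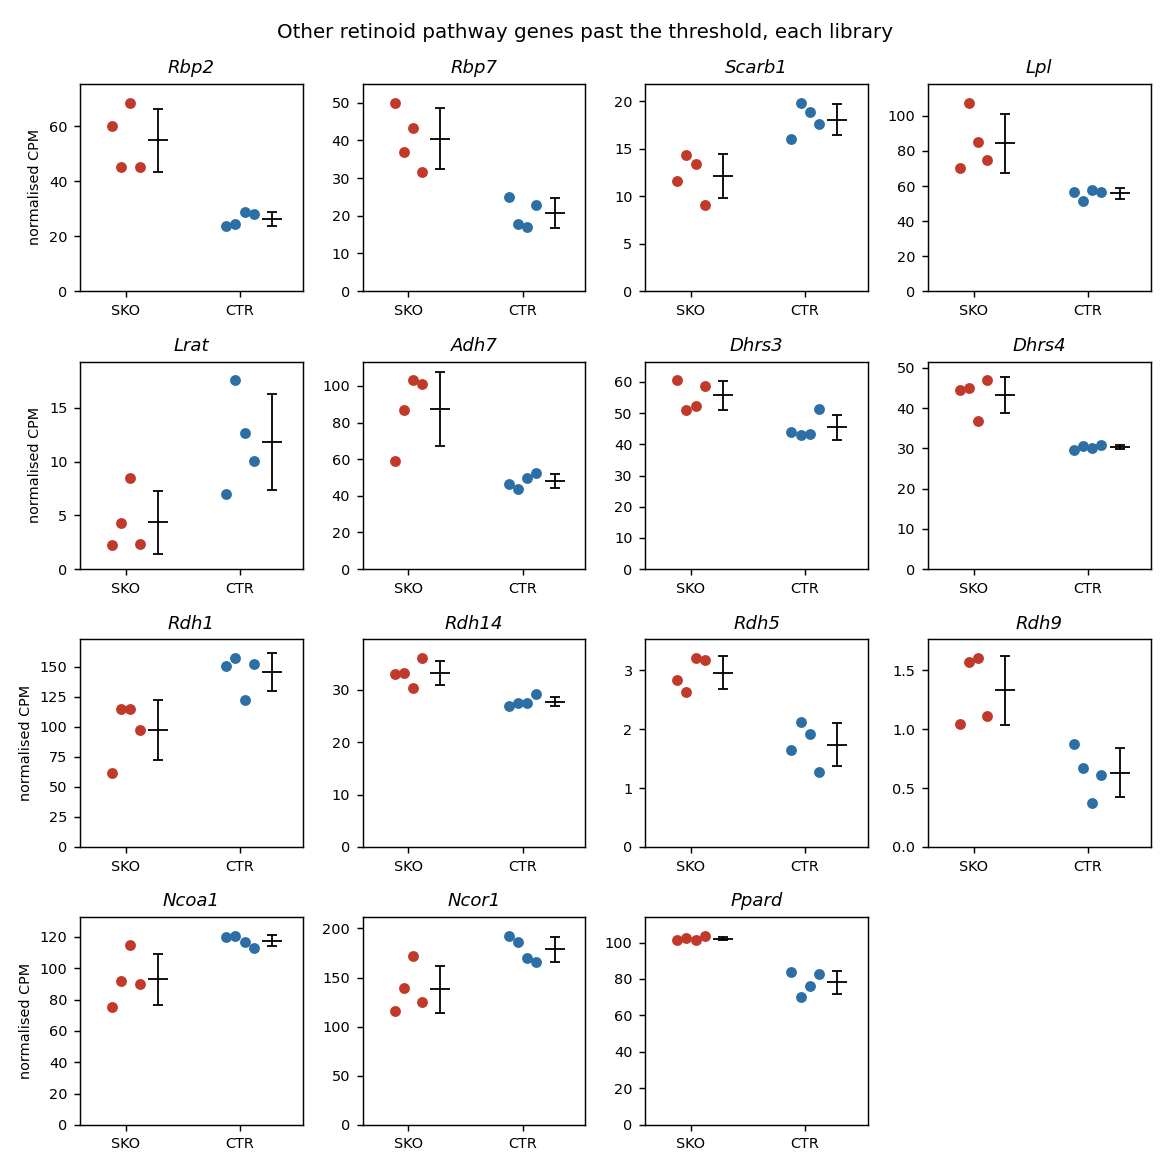
Normalised CPM in each library (points) of the 15 other retinoid pathway genes that passed the threshold, SKO left and CTR right, with mean and SD beside the points and linear axes from 0. For Rbp2 and Rbp7 every SKO point is above every CTR point, while the groups overlap for Lrat, Dhrs3, Ncoa1 and Ncor1.

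In storage, 1 of 7 tested genes was higher and 1 lower (28.6%, beside 23.7% of all tested genes). Lrat, which encodes the main retinol-esterifying enzyme, had 2.25, 4.25, 8.51 and 2.38 CPM in SKO 1 to 4, against 7.02, 17.6, 12.7 and 10.1 CPM in CTR 1 to 4. SKO 3 was above CTR 1, and the gene was 2.71-fold lower in SKO (log2 fold change -1.44, SE 0.42, edgeR adjusted p = 0.0315). That call ended in the fits without SKO 1, SKO 2, SKO 4, CTR 2 or CTR 3 (adjusted p = 0.0592 to 0.0860) and in the robust fit (adjusted p = 0.0631). Within each group the libraries had the same order for Lrat as for the summed hair shaft markers, which were 319.9, 2897, 3879 and 915.9 CPM in SKO 1 to 4 and 6602, 12352, 12210 and 9014 CPM in CTR 1 to 4. For Cyp26b1 the order differed from that of the hair shaft markers in both groups. Cyp26b1 had 24.5, 36.2, 26.0 and 34.3 CPM in SKO 1 to 4, against 52.4, 63.0, 46.5 and 53.7 CPM in CTR 1 to 4. The part of the hair shaft markers in the Lrat difference was not tested. Lpl, the lipoprotein lipase gene, whose product can also split retinyl esters, had 84.4 ± 16.7 CPM in SKO and 55.7 ± 2.88 CPM in CTR (SD, n = 4 each), 1.51-fold higher without overlap (edgeR adjusted p = 0.00802). Dgat2, of the same enzyme class as Dgat1 though not of its family, had 338 ± 19.6 CPM in SKO and 363 ± 24.9 CPM in CTR (log2 fold change -0.10, 95% interval -0.28 to 0.07, edgeR adjusted p = 0.365).

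Genes that interconvert retinol and retinal were changed in 7 of 15 tested, 6 higher and 1 lower (46.7%, beside 23.7% of all tested genes). Adh7, a class IV alcohol dehydrogenase gene whose product oxidizes retinol in epithelia, had 59.0, 86.9, 103 and 101 CPM in SKO 1 to 4, against 46.4, 43.7, 49.99 and 52.7 CPM in CTR 1 to 4. All SKO libraries were above all CTR libraries, with SKO 1 closest to them, and the gene rose 1.82-fold (log2 fold change 0.86, SE 0.16, edgeR adjusted p = 0.00450). Dhrs4, a short-chain dehydrogenase gene active on retinal and retinol, had 43.3 ± 4.40 CPM in SKO and 30.3 ± 0.536 CPM in CTR (SD, n = 4 each), 1.43-fold higher without overlap (edgeR adjusted p = 0.00311). Smaller or less stable rises were those of Dhrs3, the retinal reductase gene (1.22-fold, edgeR adjusted p = 0.0367), Rdh14 (1.19-fold, edgeR adjusted p = 0.0345), Rdh5 (1.71-fold, edgeR adjusted p = 0.0193) and Rdh9 (2.08-fold, edgeR adjusted p = 0.0239, at 1.33 CPM in SKO and 0.632 CPM in CTR). Rdh1 was 1.499-fold lower in SKO, at 97.0 ± 25.1 CPM in SKO and 145 ± 15.5 CPM in CTR (SD, n = 4 each, edgeR adjusted p = 0.0367). Each of these 5 calls ended in some fits without 1 library: Dhrs3 without SKO 1, SKO 4, CTR 1, CTR 2 or CTR 3 (adjusted p up to 0.0954) and, at 0.0501, without a count filter, Rdh14 without SKO 1, SKO 2, SKO 4, CTR 1, CTR 2 or CTR 3 (up to 0.0985) and, at 0.0712, without a count filter, Rdh5 without SKO 4 or CTR 1 (up to 0.0512), Rdh9 without SKO 2, CTR 2, CTR 3 or CTR 4 (up to 0.0644) and Rdh1 without SKO 4, CTR 1, CTR 2 or CTR 4 (up to 0.0874). Rdh1 and Rdh9 are close relatives side by side on chromosome 10, and the sources used here do not say how reads shared between them were counted. Sdr16c6 was the most abundant gene of this step per length, with 544 RPKM in SKO and 469 RPKM in CTR, at a log2 fold change of 0.21 (95% interval -0.06 to 0.49, edgeR adjusted p = 0.228).

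Markers of sebocytes, cells rich in retinoid and lipid enzymes, were summed beside these rises: 3 of 10 tested were higher and 0 lower, and the summed levels overlapped at 2218 to 3096 CPM in SKO and 1874 to 2290 CPM in CTR. The sebocyte markers share genes with the storage list, Dgat2 among them. Of all tested genes 11.5% were higher and 12.2% lower in SKO, the background for each marker count given here. Upper follicle markers were higher for 4 of 6 and lower for 0, with sums of 5764 to 6952 CPM in SKO and 3028 to 4139 CPM in CTR. Of 10 dermal fibroblast markers 7 were tested, 0 were higher and 1 was lower, with sums of 40.8 to 94.8 CPM in SKO and 74.1 to 104 CPM in CTR. Markers of resident immune cells and pigment cells were higher more often than lower: 5 of 7 tested Langerhans and dendritic cell genes of 8 (0 lower), 3 of 3 tested T cell genes of 7 and 4 of 8 melanocyte genes (1 lower). Their sums, over tested and untested markers, were 179 to 264 CPM in SKO and 94.8 to 150 CPM in CTR for Langerhans and dendritic cells, 13.9 to 26.0 CPM in SKO and 7.38 to 11.8 CPM in CTR for T cells, and 332 to 556 CPM in SKO and 249 to 364 CPM in CTR for melanocytes. The part of these cell types in the retinoid gene differences was not tested.

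The remaining steps differed in how many genes passed. Of the 2 tested genes each for carotenoid cleavage, further retinal oxidation and further breakdown, 0 of 6 passed the edgeR threshold, against 23.7% of all tested genes, and 0 that of DESeq2, and 1, Bco2, had an unadjusted edgeR p under 0.05. The most abundant per length were Bco2, a carotenoid-cleaving enzyme gene (1.17 ± 0.388 CPM in SKO and 0.716 ± 0.123 CPM in CTR, edgeR adjusted p = 0.102, or 0.0463 without SKO 4), Aldh1b1, a mitochondrial aldehyde dehydrogenase gene (5.26 ± 0.936 CPM in SKO and 5.20 ± 1.05 CPM in CTR, edgeR adjusted p = 0.962), and Cyp1b1, a cytochrome P450 gene (40.4 ± 8.70 CPM in SKO and 33.4 ± 6.22 CPM in CTR, edgeR adjusted p = 0.270; SD, n = 4 each). Of 10 tested receptors and partners 1 was higher and 2 were lower (30.0%). Ppard, the gene of the nuclear receptor PPAR delta, had 102, 102, 101 and 104 CPM in SKO 1 to 4, against 83.7, 69.9, 76.2 and 82.7 CPM in CTR 1 to 4. It rose 1.31-fold without overlap (log2 fold change 0.39, SE 0.07, edgeR adjusted p = 0.00465). The corepressor gene Ncor1 (138 ± 24.4 CPM in SKO and 179 ± 12.7 CPM in CTR, edgeR adjusted p = 0.0431) and the coactivator gene Ncoa1 (93.0 ± 16.3 CPM in SKO and 118 ± 3.49 CPM in CTR, edgeR adjusted p = 0.04997; SD, n = 4 each) were lower near the threshold. Both were called without SKO 3 and lost without any other single library (adjusted p up to 0.111 and 0.110). Ncoa1 was also lost with upper-quartile or relative log expression factors and with both other count filters (adjusted p = 0.0513 to 0.0540). Rxra, the RXR gene most abundant here and partner of Rarg, had 368 ± 32.2 CPM in SKO and 371 ± 24.7 CPM in CTR (log2 fold change -0.02, 95% interval -0.20 to 0.17, edgeR adjusted p = 0.913), and its sign turned with upper-quartile factors or library totals (0.01 and 0.0029).

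Genes that retinoic acid is known to induce in skin or other tissues moved both ways. Of 13 such genes, 5 of which also stand in the lists above, 10 were tested, and 3 were higher and 2 lower (50%, beside 23.7% of all tested genes), with a median log2 fold change of 0.02. The number called was 2 without SKO 1, CTR 2 or CTR 3, and 3 without SKO 2, SKO 4 or CTR 1. Krt4, a keratin gene of mucosal epithelia, had 77, 31, 34 and 86 counts in SKO 1 to 4, against 5, 3, 4 and 9 counts in CTR 1 to 4. It rose 10.7-fold without overlap, with CTR near the floor (2.97 ± 1.551 CPM in SKO and 0.268 ± 0.116 CPM in CTR, SD, n = 4 each, edgeR adjusted p = 0.00142). Hbegf, an EGF receptor ligand gene, had 15.2 ± 2.46 CPM in SKO and 8.996 ± 1.69 CPM in CTR (SD, n = 4 each), 1.69-fold higher without overlap (edgeR adjusted p = 0.00984). Dhrs3, described above, was the other rise, and Lrat was 1 of the 2 falls. Krt19, a keratin gene of simple epithelia and follicles, was 2.68-fold lower (0.390 ± 0.242 CPM in SKO and 1.04 ± 0.362 CPM in CTR, SD, n = 4 each, edgeR adjusted p = 0.0406), a call that ended without SKO 1, SKO 2, SKO 3, CTR 1, CTR 2 or CTR 3 (adjusted p up to 0.114). Rarres1, named for its response to retinoids, had 144 ± 13.5 CPM in SKO and 152 ± 49.0 CPM in CTR (SD, n = 4 each, edgeR adjusted p = 0.798). Rarb and Cyp26a1 did not pass the count filter.

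Similar profiles were sought among 10575 tested genes whose mean level reached 5 CPM. Genes with only a clone name, such as Gm followed by digits, were left out. For the 3 tested members with the largest fold changes, the genes with the most similar profile were found by Pearson's r of log2 CPM over the 8 libraries. For Cyp26b1 these were Ftx (r = 0.986, or 0.957 after removal of the group means), Rccd1 (0.977 and 0.877) and Ccl28 (0.975 and 0.876), each lower in SKO (edgeR adjusted p = 0.0368, 0.0222 and 0.00460). The Ccl28 call held without any 1 library, the Rccd1 call ended without SKO 1 or CTR 2 (up to 0.0633), and the Ftx call ended in 6 of 8 such fits, all but those without SKO 2 or SKO 4 (up to 0.0919), with library totals (0.0509) and without a count filter (0.0673). Ftx is a non-coding RNA gene next to Xist on the X chromosome, and Ccl28 encodes a chemokine of epithelia. For Crabp2 they were Mrpl44, a mitochondrial ribosome gene (0.989 and 0.971), Tmem9 (0.987 and 0.974) and Tiprl (0.985 and 0.970). Of these Mrpl44 and Tmem9 were higher in SKO (edgeR adjusted p = 0.0308 and 0.0446), and Tiprl had an edgeR adjusted p of 0.0732. The Mrpl44 call ended without SKO 1, SKO 4, CTR 1, CTR 2 or CTR 3 (up to 0.0783), and the Tmem9 call without any single library other than SKO 3 (up to 0.107). Dhrs9 was most like Slc9a3r1 (0.973 and 0.973), Casp14, a protease gene of the cornifying layers (0.953 and 0.954), and Pak4 (0.934 and 0.935), which did not pass the test (edgeR adjusted p = 0.878, 0.776 and 0.863). With 8 libraries and so many genes searched, high values of r arise in any such search, and they are given as a description.

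**Figure D4:**
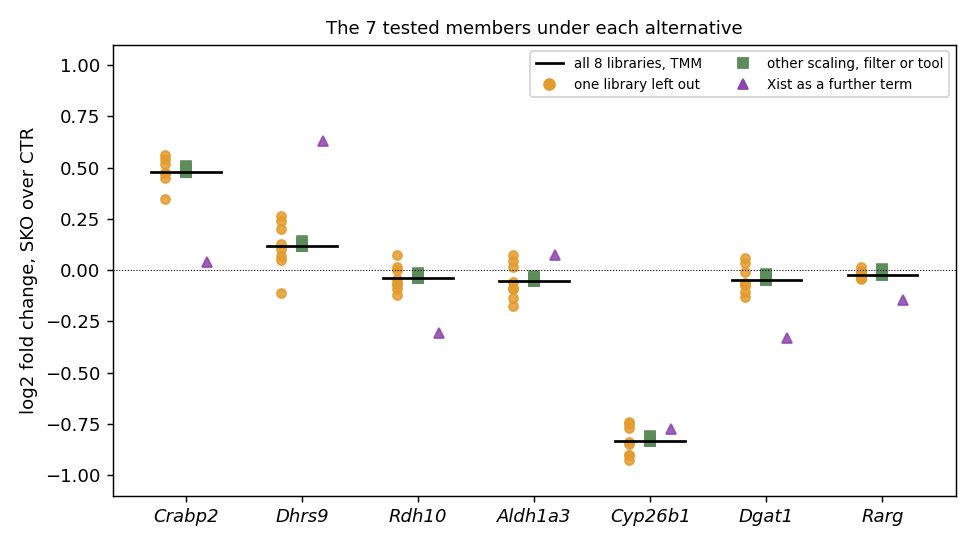
Log2 fold change of SKO over CTR for the 7 tested members (black line, all 8 libraries with TMM scaling), with each library left out in turn (orange circles), under other scalings, filters or tools (green squares) and with Xist level added to the model (purple triangles). Cyp26b1 stays between -0.93 and -0.74, while Crabp2 is at 0.04 with the Xist term.

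The level of Xist, which differed between the groups, was added to the model as a further term. The labels give no sex, but Xist was detected and 4 Y-linked genes had 0 counts in every library. No library had the pattern of a male, so the term does not stand for a difference in sex. With the Xist term, the log2 fold change of Cyp26b1 was -0.77 and that of Crabp2 0.04 (edgeR adjusted p = 0.206 and 0.932), and 0 of 7 members, 0 of 43 other retinoid genes and 77 of all 15638 tested genes passed the threshold. At an unadjusted p under 0.05 the counts were 1 member, Cyp26b1, and 9 other retinoid genes; DESeq2 was not run with this term. For Rbp2 and Rbp7 it gave 1.27 and 0.77 (edgeR adjusted p = 0.0615 and 0.222). Xist did not overlap between SKO and CTR libraries, so its term and the group share much of their variation.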

How the data were processed

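Poly-A RNA of tail epidermis, peeled after 5 h in 10 mg/ml dispase at 4 °C, was read as single 75 bp reads from stranded libraries, per the labels' protocols. The authors deposited raw read counts per gene. The submitters' processing notes name STAR 2.4.1d, featureCounts 1.4.6 and GRCm38 among tools and builds. The sources used here do not give the annotation release, strand setting or treatment of multiply matching reads. Symbols, positions and exon lengths came from GENCODE M21, on GRCm38 (46488 of 46983 identifiers matched).

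Counts were tested with edgeR 4.0.16 (R 4.3.3; TMM, filterByExpr, quasi-likelihood test, group as the only term, Benjamini-Hochberg over 15638 genes, threshold 0.05). The test was checked on simulated data. CPM values are TMM-normalised, RPKM divides them by exon length, and 95% intervals follow from the test's F value. Replicate numbers only name libraries. No pair of libraries of a group agreed within sampling noise (chi-square per degree of freedom 13.2 to 55.7). Intervals and floors cover counting and library spread only.

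Members and lists were chosen with earlier results of these data known. Of the lists beyond the members, 1 gene is not reported here and is left out of their counts. Named were all members, Ppp1r8, Xist, every called gene of the other lists, the most abundant uncalled gene per list (the rule allowed 3) and the 3 most similar profiles. Alternatives were other scaling factors, DESeq2 1.42.0, a robust fit, other count filters, each library left out and Xist as a further term.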

Additional observations from a re-analysis of the deposited data

Results flagged for a closer look

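In groups of 4 libraries, 1 library stood far from the other 3 in 4 of 92 gene-by-group sets examined, where chance flags about 1 in 20. Aldh1a1 had 0.307 CPM in CTR 1, against 0.0619 to 0.0962 CPM in the other CTR libraries. Dhrs3 had 51.4 CPM in CTR 4, against 43.1 to 44.0 CPM in the others, and the Dhrs3 call was kept without it. Fabp5 had 553 CPM in SKO 2, against 358 to 389 CPM in the other SKO libraries. Sdr16c6 had 1035 CPM in CTR 2, against 855 to 869 CPM in the other CTR libraries.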

How the results depend on the processing

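Cyp26b1 and Crabp2 kept their calls under other scaling factors, DESeq2, the robust fit and both other count filters. With Xist as a further term the counts were 77 of all genes, 0 members, 0 other retinoid genes and 0 target genes, against 3700, 2, 15 and 5; the cause was not tested. That term also turned the sign of Lrat (0.37), Ncoa1 (0.046), Ncor1 (0.051), Aldh1a3 (0.075), Aldh1b1 (-0.31), Rxra (0.30) and Tmem9 (-0.054), of which Lrat, Ncoa1, Ncor1 and Tmem9 were called without it. Leaving out 1 library gave 2589 to 4370 genes, 1 to 2 members, 8 to 18 other retinoid genes and 2 to 5 target genes. Over these fits the log2 fold change ran from -0.18 to 0.074 for Aldh1a3, -0.13 to 0.057 for Dgat1, -0.11 to 0.26 for Dhrs9, -0.042 to 0.014 for Rarg, -0.12 to 0.072 for Rdh10, -0.10 to 0.14 for Aldh1b1, -0.20 to 0.26 for Casp14, -0.012 to 0.049 for Pak4, -0.21 to 0.048 for Ppp1r8, -0.21 to 0.13 for Rarres1, -0.070 to 0.029 for Rxra and -0.058 to 0.080 for Slc9a3r1, none of them called. Upper-quartile factors turned the sign of Rarg (0.0040) and Rxra (0.0091), and library totals that of Rxra (0.0029). Upper-quartile factors split the 3768 genes called into 2012 higher and 1756 lower. No paired analysis was possible because the labels tie no SKO mouse to a CTR mouse, and replicate numbers only name libraries. Levels under about 0.18 CPM, those of Aldh1a1 among them, are limited by depth.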
